A study of Mus musculus with 4 samples.

Results

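Chemokines are small secreted proteins that direct the migration of leukocytes. The 9 chemokine genes described here are *Ccl1*, *Ccl3*, *Ccl4*, *Ccl5*, *Ccl9*, *Ccl17*, *Ccl20*, *Ccl22* and *Xcl1*, picked by symbol as chemokines that T cells can make, from 15981 genes listed in at least 1 table of the study. RNA-Seq was done on CD8+ Tc1 and Tc9 cells of Thy1.1+ Pmel-1 mice (strain C57BL/6), whose T cell receptor recognizes a melanocyte antigen. Both cell types were primed with antibodies to CD3 and CD28, Tc1 cells with recombinant human IL-2, and Tc9 cells with IL-4, TGF-β and an antibody that neutralizes IFN-γ. Both were then kept in medium with recombinant human IL-2 up to the end of the 5 days of culture. They were given intravenously to Thy1.2+ B6 mice with subcutaneous B16 melanomas of 10 days, and they were sorted from the tumors 14 days later. Recipients of both groups also had adjuvant treatment, described by the study as cyclophosphamide, dendritic cells and recombinant human IL-2. RNA of several mice was pooled into each of 4 libraries, 2 per group, so the libraries do not show how single mice vary, and Tc1 and Tc9 name what the cells were polarized to, not what they had become in the tumor.

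The tables list genes by numeric identifier and reach different points in that order. Tc1 replicate 2 and Tc9 replicate 2 reach all 9 genes, Tc9 replicate 1 reaches *Xcl1* only, and Tc1 replicate 1 reaches none. A gene within a table's reach that is not listed was taken as 0. The depth of the libraries was 30822953 to 31927162 counts, and a count of 0 allows up to 3 counts. For 8 of the 9 genes each group had 1 library and no test was possible, and all values are levels in pooled bulk RNA, where fewer expressing cells and less RNA per cell cannot be told apart.

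CCL3, CCL4 and CCL5 are inflammatory chemokines that effector CD8+ T cells release on activation, and they attract monocytes, dendritic cells and other T cells. CCL9 is a ligand of CCR1. XCL1 acts through XCR1, the receptor of cross-presenting dendritic cells. CCL1 binds CCR8, CCL17 and CCL22 bind CCR4, and CCL20 binds CCR6, which are receptors known from type 2, regulatory and type 17 T cells.

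Of the 9 chemokine genes, 5 were lower by over 2-fold in the Tc9 than in the Tc1 library of replicate 2 (*Ccl3*, *Ccl4*, *Ccl5*, *Ccl9* and *Xcl1*), and 1 was higher (*Ccl1*). *Ccl22* lay at 4 and 5 counts. *Ccl17* and *Ccl20* lay at or under 3 counts in both libraries and were given no ratio. Of 6225 genes with at least 10 counts in either library, 4.95% were lower by over 2-fold in Tc9 and 10.9% were higher. *Ccl9* and *Ccl1* passed this count minimum only through the library in which they were high. On the FPKM scale, which corrects for gene length, the 9 genes summed to 253 in Tc1 replicate 2 and 43.8 in Tc9 replicate 2, 5.77-fold lower.

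In Tc1 replicate 2 the FPKM levels ran from *Xcl1* at 121 through *Ccl5* at 76.6, *Ccl3* at 39.6 and *Ccl4* at 14.3 to *Ccl9* at 0.99. *Ccl17*, *Ccl1*, *Ccl22* and *Ccl20* followed between 0.16 and 0.04 FPKM, and their counting intervals (95%, exact Poisson) overlapped. In Tc9 replicate 2 *Xcl1* again led at 28.0 FPKM, then *Ccl5* at 9.15. *Ccl3* and *Ccl4* stood side by side at 2.59 FPKM each and *Ccl1* at 1.24, with an interval of 0.68 to 2.08 that overlapped theirs. Below them, *Ccl22* at 0.10, *Ccl20* at 0.09 and *Ccl9* at 0.05 FPKM overlapped in their intervals, and *Ccl17* was not listed. Over the 7829 genes that either library lists within their shared reach, 414 had a higher FPKM than *Xcl1* in Tc1 replicate 2 and 1600 in Tc9 replicate 2.

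**Figure D1:**
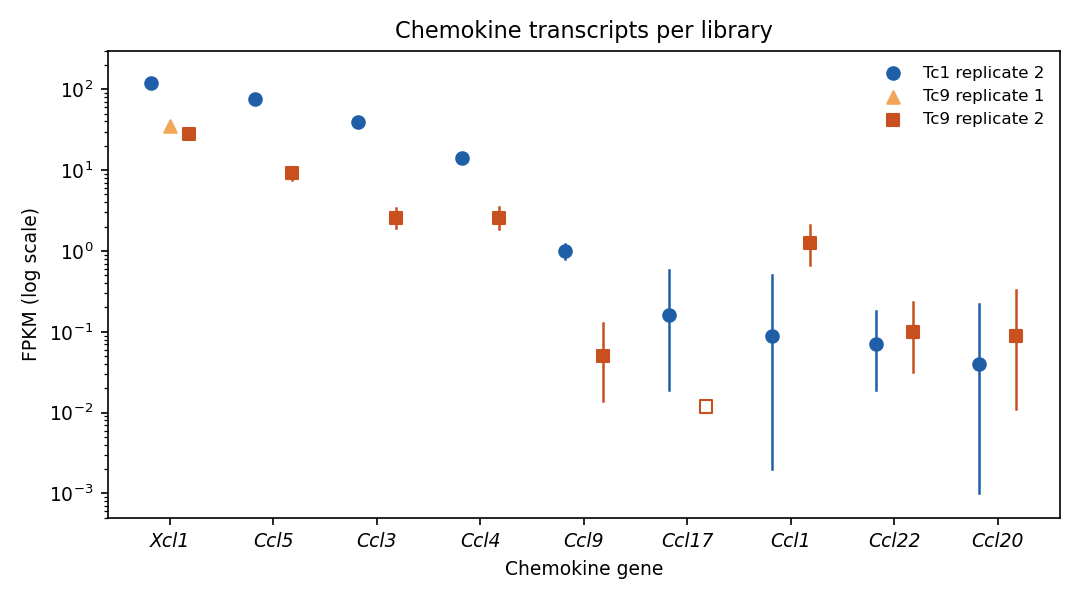
FPKM (log axis) of the 9 chemokine genes in the libraries that reach them, with 95% exact Poisson intervals from the counts (counting error only) for the replicate 2 libraries; the open square marks 0 for *Ccl17* and has no place on the scale. *Xcl1*, *Ccl5*, *Ccl3*, *Ccl4* and *Ccl9* lie lower in Tc9, and *Ccl1* lies higher (0.09 and 1.24 FPKM).

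*Ccl3* (gene identifier 20302, chromosome 11, 83647844 to 83649355 in mm10, minus strand, 3 exons) had 830 counts in Tc1 replicate 2 and 53 in Tc9 replicate 2. The log2 ratio of Tc9 to Tc1 was -3.92 (95% Wilson interval -4.37 to -3.57). The ratio, here and below, was computed with 2 counts added to each scaled count, and the interval without them. Only 7 of the 6225 genes were lower by more. Among 537 genes with a mean count within 2-fold of that of *Ccl3*, 95% differed by at most 0.56 on the log2 scale between the 2 Tc9 libraries, and none by as much as *Ccl3* did between the cell types. Among 284 such genes between the 2 Tc1 libraries, 95% differed by at most 0.25.

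*Ccl5* (20304, chromosome 11, 83525778 to 83530518, minus strand, 3 exons) had 1054 counts in Tc1 replicate 2 and 124 in Tc9 replicate 2, or -3.07 as a log2 ratio (95% Wilson interval -3.36 to -2.82). *Ccl4* (20303, chromosome 11, 83662584 to 83664683, plus strand, 3 exons) had 245 and 44 counts, or -2.42 (95% Wilson interval -2.94 to -2.02). Both differences were beyond those of all genes of like count between replicates of either group, 597 and 340 genes for the Tc9 libraries. *Ccl3* and *Ccl4* are neighbors, 13.2 kb apart. The interval of *Ccl3* lay below that of *Ccl4*, and the FPKM of *Ccl3* was 2.77 times that of *Ccl4* in the Tc1 library and equal to it in the Tc9 library. RefSeq also holds a longer predicted span of *Ccl4*, from 83648624 to 83664683, that overlaps *Ccl3* on the other strand, and the table counts for *Ccl4* a further transcript of the authors' own. Whether counting used the strand is not given in the sources used here, so reads of this overlap are of uncertain origin.

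*Ccl9* (20308, chromosome 11, 83572919 to 83578636, minus strand, 4 exons) had 91 counts in Tc1 replicate 2 and 4 in Tc9 replicate 2, which is -3.95 on the log2 scale (95% Wilson interval -5.90 to -3.12). With so few counts replicates differ more, and between the Tc9 libraries 2 of 282 genes of like count differed by as much. On the log2(FPKM + 1) scale the difference was -0.92, since both levels lay under 1 FPKM.

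*Xcl1* (16963, chromosome 1, 164931644 to 164935527, minus strand, 3 exons) was the only one of the 9 genes measured in both Tc9 libraries. It had 1367 counts in Tc1 replicate 2, 394 in Tc9 replicate 1 and 313 in Tc9 replicate 2, which correspond to 121, 35.2 and 28.0 FPKM, with a Tc9 mean of 31.6 ± 5.08 FPKM (SD, n = 2). Both Tc9 libraries lay below the Tc1 library, and the log2 ratio between the Tc9 libraries was -0.33. Tested with edgeR's quasi-likelihood method among 2622 genes of these 3 libraries, *Xcl1* fell by 1.98 on the log2 scale (standard error 0.24, adjusted p = 5.92e-15). At an adjusted p under 0.05 the test called 20.4% of genes, 7.93% lower and 12.5% higher in Tc9, and 33 genes fell by more than *Xcl1*. The lone Tc1 library was assumed to vary like the Tc9 libraries, and with 1 residual degree of freedom the p-value rests on the spread pooled over genes. With no filter on low counts the value was the same but its adjusted p was 0.137 in edgeR, and over the other alternatives with a test it lay between 1.24e-13 and 0.000785.

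*Ccl1* (20290, chromosome 11, 82176657 to 82179812, minus strand, 3 exons) had 1 count in Tc1 replicate 2 against 14 in Tc9 replicate 2, which is 2.42 on the log2 scale (95% Wilson interval 1.24 to 6.38). The value rests on a single count in Tc1 and moved with the scale, to 3.27 with a prior count of 0.5, 1.66 with a prior count of 5 and 1.04 on log2(FPKM + 1). Of the 7 chemokine genes given a ratio, *Ccl1* alone was over 2-fold higher in the Tc9 library. Genes of so few counts vary between replicates, and 95% of 139 genes of like count differed by at most 1.93 between the Tc9 libraries. *Ccl22* (20299, chromosome 8, 94745590 to 94751699, plus strand) had 4 and 5 counts, and a difference was not detectable at this depth (0.22 on the log2 scale, 95% Wilson interval -1.46 to 2.10). *Ccl17* (20295), which lies 58.8 kb from *Ccl22* on chromosome 8, had 2 counts and 0. *Ccl20* (20297, chromosome 1) had 1 count and 2. For these last genes no fold is given, as neither library rose above 3 counts.

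**Figure D2:**
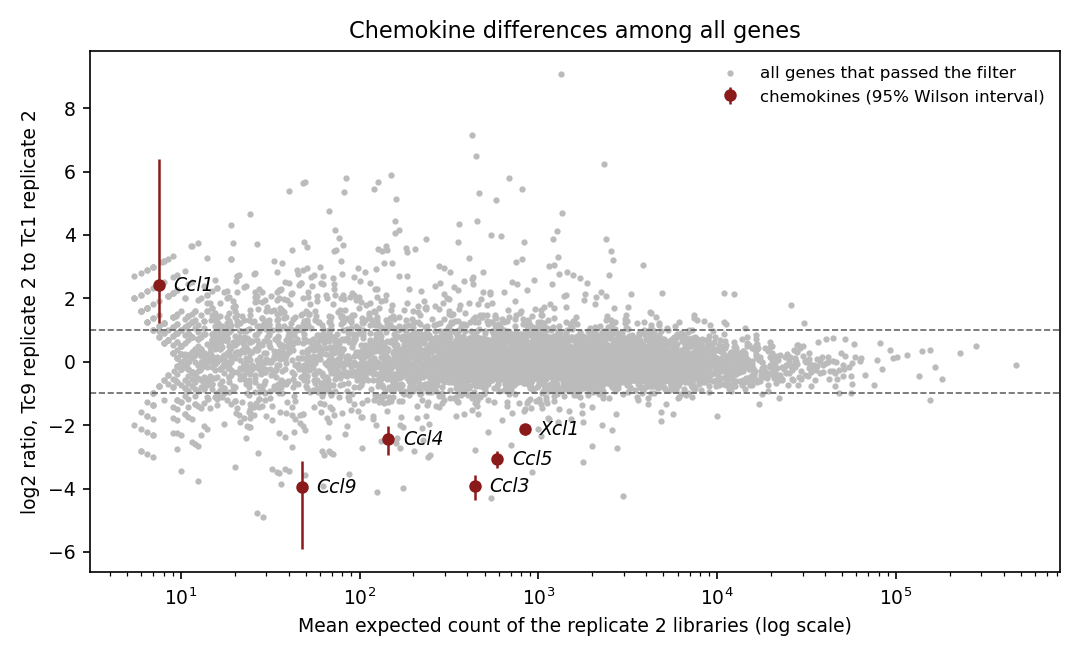
Log2 ratio of Tc9 replicate 2 to Tc1 replicate 2 against the mean expected count of both libraries (log axis), for 6225 genes (gray) and the 6 chemokine genes with at least 10 counts in either (red, 95% Wilson intervals); dashed lines mark 2-fold. *Ccl3*, *Ccl5*, *Xcl1*, *Ccl4* and *Ccl9* lie between -2.12 and -3.95, and *Ccl1* lies at 2.42 among genes of few counts.

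The make-up of the chemokine transcripts differed as well. *Xcl1* was 47.9% of the summed FPKM of the 9 genes in Tc1 replicate 2 and 63.9% in Tc9 replicate 2. *Ccl5* made up 30.3% and 20.9%, *Ccl3* 15.7% and 5.91%, and *Ccl4* 5.65% and 5.91%. *Ccl1* went from 0.036% to 2.83%. The FPKM of *Xcl1* was 1.58 times that of *Ccl5* in the Tc1 library and 3.06 times in the Tc9 library. The difference of *Xcl1* between the replicate 2 libraries, a log2 ratio of -2.12 (95% Wilson interval -2.30 to -1.95), was smaller than that of *Ccl5* by these counting intervals, which did not overlap.

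**Figure D3:**
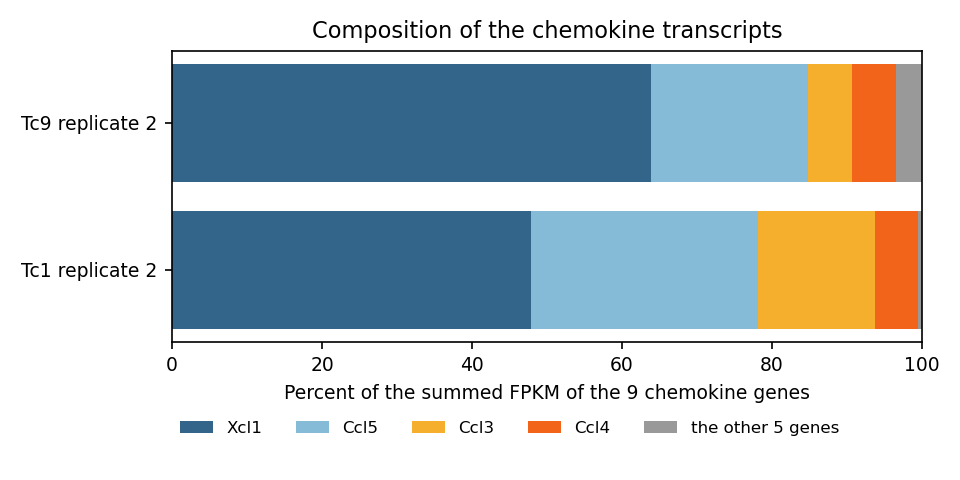
Share of each chemokine gene in the summed FPKM of the 9 genes, in percent, for the replicate 2 libraries. The share of *Xcl1* is 47.9% in Tc1 and 63.9% in Tc9, and that of *Ccl3* is 15.7% and 5.91%.

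Promoter windows of 300 bases, from 250 before the RefSeq transcript start to 50 after it (GRCm38.p6), were at hand for 7 of the 9 genes. They are shown for the 3 genes with windows that were lower and for *Ccl1*, which was higher, so that the sequences in front of genes that differed in opposite directions can be compared. Capitals mark motifs looked for on both strands: TGANTCA (AP-1), an NF-κB-like motif (GGG and TTCC set apart by 3 bases), GGAAA (the core bound by NFAT, which can overlap the NF-κB-like motif), TGTGGT (RUNX) and GGTGTGA (T-box). The motifs were chosen after the values and windows were seen.
*Ccl3*, chr11:83649329-83649628, minus strand: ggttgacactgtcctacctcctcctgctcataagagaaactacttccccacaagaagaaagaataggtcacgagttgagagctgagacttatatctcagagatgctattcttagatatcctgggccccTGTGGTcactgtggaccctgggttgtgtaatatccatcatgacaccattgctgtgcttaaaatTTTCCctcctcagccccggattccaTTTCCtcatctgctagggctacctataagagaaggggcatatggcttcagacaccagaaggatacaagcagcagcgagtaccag
*Ccl9*, chr11:83578587-83578886, minus strand: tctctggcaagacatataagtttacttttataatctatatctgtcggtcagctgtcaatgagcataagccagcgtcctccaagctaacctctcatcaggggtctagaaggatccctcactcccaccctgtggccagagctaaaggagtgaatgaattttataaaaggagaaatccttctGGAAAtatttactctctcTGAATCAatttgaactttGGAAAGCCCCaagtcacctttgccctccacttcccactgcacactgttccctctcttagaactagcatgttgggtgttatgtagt
*Xcl1*, chr1:164935473-164935772, minus strand: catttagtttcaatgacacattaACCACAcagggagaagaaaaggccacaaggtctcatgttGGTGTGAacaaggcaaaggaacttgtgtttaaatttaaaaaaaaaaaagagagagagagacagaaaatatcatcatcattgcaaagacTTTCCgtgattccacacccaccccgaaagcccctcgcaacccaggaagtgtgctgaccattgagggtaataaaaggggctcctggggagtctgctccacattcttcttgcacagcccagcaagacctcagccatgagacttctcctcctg
*Ccl1*, chr11:82179763-82180062, minus strand: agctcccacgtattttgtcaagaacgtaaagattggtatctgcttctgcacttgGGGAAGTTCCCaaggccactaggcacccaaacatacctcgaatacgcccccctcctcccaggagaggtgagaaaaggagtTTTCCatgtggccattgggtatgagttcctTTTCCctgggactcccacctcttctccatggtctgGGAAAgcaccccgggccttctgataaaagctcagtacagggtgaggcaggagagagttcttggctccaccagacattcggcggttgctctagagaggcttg

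All 4 windows held GGAAA, a motif found in 61.3% of 32851 RefSeq windows of the same length. The window of *Ccl1* held an NF-κB-like motif that reads on both strands from base -196 to -186 before the start and had none of the AP-1, RUNX and T-box motifs. That of *Ccl9* held an NF-κB-like motif at -35 to -26 and an AP-1 motif at -53 to -47, and these motifs occur in 5.56% and 7.81% of all windows. The RUNX motif lay in the windows of *Ccl3*, at -122 to -117, and of *Xcl1*, at -227 to -222 on the opposite strand, and in 16.8% of all windows. *Xcl1* also held the T-box motif at -188 to -182, found in 3.98% of all windows. Of the windows not printed, that of *Ccl20* held the RUNX motif at -114 to -109 and the T-box motif at -168 to -162. It also held the NF-κB-like motif at -80 to -71. *Ccl20* lay at 1 and 2 counts, so whether it differed is not known. A tie of these motifs to genes that differed was not tested. The window of *Ccl17* held GGAAA alone, and that of *Ccl22* held none of the motifs. Each match is a run of letters and not a measured site.

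Several receptors of these chemokines were reached by more libraries. *Ccr8*, the receptor of CCL1, was counted 99 times in Tc1 replicate 2, 2540 times in Tc9 replicate 1 and 2622 times in Tc9 replicate 2. It rose by 4.67 on the log2 scale (standard error 0.34, adjusted p = 7.51e-39 in edgeR's test over 3 libraries). *Ccr4*, the receptor of CCL17 and CCL22, had 3968, 18121 and 17982 counts in the same order and rose by 2.16 (standard error 0.28, adjusted p = 3.58e-13 in that edgeR test). For both genes the Tc9 libraries lay above the Tc1 library. As with *Xcl1*, these calls were lost without the filter on low counts (adjusted p = 0.123 for each in edgeR). *Ccr6*, the receptor of CCL20, was reached by all 4 libraries, at 14 and 18 counts for Tc1 and 11 and 4 for Tc9. Its log2 fold change of -1.08 (standard error 0.50) did not pass the threshold in edgeR over 4 libraries (adjusted p = 0.117), where 34.1% of 1284 genes did. Without Tc9 replicate 1 its log2 fold change was -1.97 (adjusted p = 0.00831 in edgeR), and limma on log2(FPKM + 1) also called it lower (-0.26, adjusted p = 0.0408). In its other alternatives it did not pass, with adjusted p from 0.052 to 0.522 in edgeR or DESeq2. *Ccr1* and *Ccr3* were at 8 counts or fewer in every library that reaches them, and *Xcr1* had 15.1 and 33 counts in the replicate 2 libraries.

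**Figure D4:**
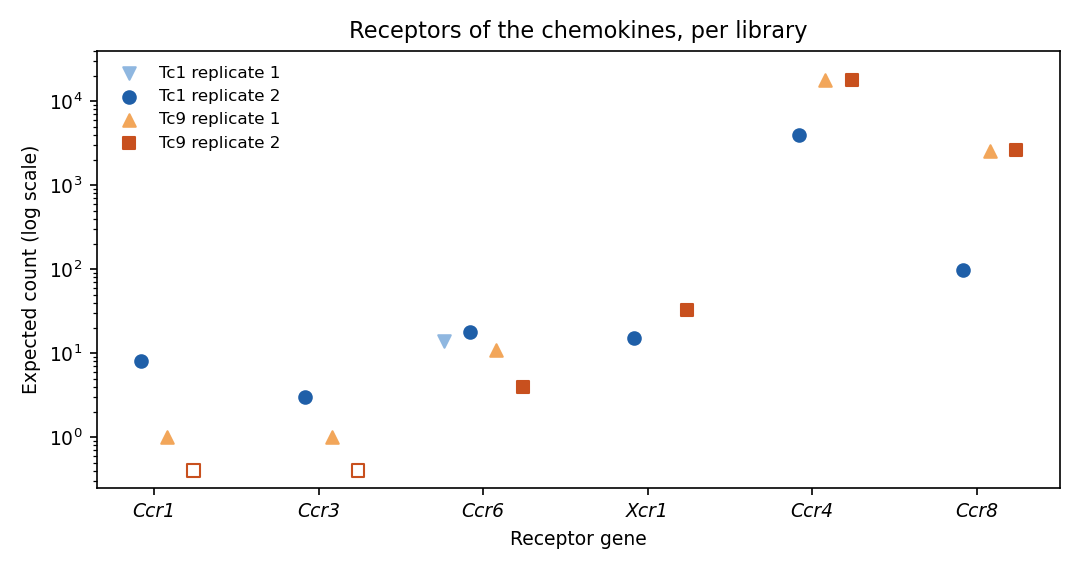
Expected counts (log axis) of 6 receptors of the chemokines in each library that reaches them; open squares mark 0 and have no place on the scale. *Ccr8* (2540 and 2622 counts against 99) and *Ccr4* (18121 and 17982 against 3968) are higher in both Tc9 libraries.

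Of 25 other chemokine genes, 16 were reached by both replicate 2 libraries, 10 of them at 0 in both and 3 with at least 10 counts in either. *Cxcl10*, an IFN-γ–induced ligand of CXCR3, was counted 238 times in Tc1 replicate 2 and 21 and 12 times in Tc9. It fell by 3.87 on the log2 scale (standard error 0.35, adjusted p = 1.28e-25 in edgeR over 3 libraries, 0.127 in edgeR with no filter). *Ccl25* had 184 and 145 counts and *Cx3cl1* 10 and 5. Of 9 genes that scavenge or process chemokines, 3 were tested and none passed the threshold. *Adam10* and *Adam17*, which shed membrane-bound chemokines, were tested over 4 libraries, where 34.1% of all genes passed. *Dpp4*, which trims several chemokines, was tested over 3, where 20.4% passed (change of -0.19 on the log2 scale with a standard error of 0.25, edgeR's adjusted p = 0.649 over 3 libraries). *Srgn*, the proteoglycan core that holds chemokines in granules, had 12702 and 12232 counts in the replicate 2 libraries, a log2 ratio of -0.05.

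The sorted cells carried the markers of CD8+ T cells, all 7 between 66.9 and 628 FPKM in the replicate 2 libraries. Of the 6 tested over 4 libraries, *Cd3e* (log2 fold change 0.73, adjusted p = 0.0108) and *Cd3g* (0.49, adjusted p = 0.00995) rose and *Cd2* (-0.44, adjusted p = 0.0107) fell in edgeR's test, where 17.4% of all genes rose and 16.7% fell. Without Tc1 replicate 2 these calls were lost (adjusted p = 0.0771, 0.127 and 0.346 in edgeR), and without Tc1 replicate 1 so were those of *Cd3g* and *Cd2* (adjusted p = 0.25 and 0.162 in edgeR). That of *Cd3e* was also lost with no filter on low counts (adjusted p = 0.074 in edgeR). Summed FPKM of the other marker lists in Tc1 and Tc9 replicate 2 was 6.33 and 12.8 for 8 macrophage genes, 1.13 and 1.44 for 6 dendritic cell genes, 4.68 and 14.2 for 4 B cell genes, 0.53 and 0.93 for 4 melanoma genes, 4.25 and 4.39 for 5 stromal or vessel genes, and 0.17 and 0.02 for 2 NK cell genes. In Tc1 and Tc9 replicate 2, *Pecam1* gave 4.21 and 4.34 FPKM of the stromal or vessel sum. *Itgax* gave 0.97 and 1.16 FPKM of the dendritic cell sum, and *Pmel* 0.50 and 0.86 FPKM of the melanoma sum. *Lyz2*, *Clec9a*, *Cd209a*, *Siglech*, *Dct* and *Tyrp1* were at 0 in both libraries. *Cd68* (221 and 439 counts) and *Cd79b* (155 and 473) made up most of their lists. Both were called higher in Tc9 by edgeR, *Cd68* by 0.84 on the log2 scale over 4 libraries (adjusted p = 0.00295) and *Cd79b* by 1.43 over 3 libraries (adjusted p = 5.98e-06, and 0.171 with no filter on low counts). *Itgam*, the other macrophage gene with at least 10 counts in either library, was counted 12 times in Tc1 replicate 2, 9 times in Tc9 replicate 1 and 2 times in Tc9 replicate 2. It did not pass the test (-1.14 on the log2 scale, adjusted p = 0.345 in edgeR over 3 libraries), and the remaining 6 genes did not reach that minimum. The CD4 list, *Cd4* and *Foxp3*, summed to 0.67 and 14.3 FPKM, and this difference came from *Foxp3*, at 34.6 and 1592 counts. *Cd4* was reached by all 4 libraries, at 50 and 45 counts for Tc1 cells and 56 and 58 for Tc9 cells, and did not pass the test (log2 fold change 0.27, adjusted p = 0.406 in edgeR over 4 libraries). The part of these cell types in the chemokine differences was not tested.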

How the data were processed

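RNA-Seq was analyzed for 4 libraries of sorted Tc1 and Tc9 cells, 2 per group, grouped by the sample titles. The authors deposited for each gene an expected count (estimated reads, not normalized) and FPKM, which they scaled by gene length and library size. The labels name mm10, and the aligner and counting program are not given in the sources used here. Identifiers and symbols were those of the tables. Each table ends at a different gene, 1 incomplete last row was dropped, and depth was set by comparing count over FPKM with Tc9 replicate 2, whose table totals 30822953 counts.

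For genes that only the replicate 2 libraries reach, log2 ratios used depth times edgeR's TMM factors from the 4-library range. A prior count of 2 was added. The 95% Wilson intervals came from the counts without the prior count, so a ratio need not lie at the center of its interval. The intervals and the floor of 3 counts hold for counting error alone and leave out the spread between libraries. PCR copies were not marked by molecular identifiers, so even the counting error may be larger than they show. Genes in the reach of 3 or 4 libraries (3436 and 1681) were tested with edgeR 4.0.16 in R 4.3.3 on rounded counts (TMM, filterByExpr with a minimum count of 10, quasi-likelihood test, two-sided, Benjamini-Hochberg). DESeq2 1.42.0 and limma 3.58.1 were alternatives. The scripts were tested on simulated data. P-values measure only the spread between these pooled libraries, which may be technical. Replicates differed beyond sampling noise (chi-square per gene 4.55 for Tc1 and 57.8 for Tc9).

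All 9 chemokines were named, the listed receptors except for 1 result that is not reported here, and of the other lists genes past 2-fold (with at least 10 counts) or an adjusted p of 0.05 and defining markers. *Adam10*, *Adam17*, *Dpp4*, *Srgn*, *Ccl25*, *Cx3cl1* and the genes in the closing part that moved less were picked with their values in view. The members and lists were chosen with earlier results of these data known.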

Additional observations from a re-analysis of the deposited data

How the results depend on the processing

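For the 7 chemokine genes with a ratio, 46 of 51 values under other scalings (depth alone, TMM factors of the replicate 2 libraries, DESeq2 size factors), prior counts of 0.5 and 5, FPKM scales and the use of Tc9 replicate 1 stayed within the counting interval or, for *Xcl1*, within the SD of the Tc9 libraries, and no gene past 2-fold changed sign. The log2(FPKM + 1) scale gave 1.04 for *Ccl1*, -3.50 for *Ccl3* and -0.92 for *Ccl9*, log2(FPKM + 0.1) gave -2.86 for *Ccl9*, and *Xcl1* was -1.79 without Tc9 replicate 2. Pseudocounts shrink low values by construction. The other scalings gave a median log2 ratio over the 6225 genes from -0.01 to 0.08, against 0.03 in the main setting. Shifts this small could hardly leave the intervals, which were wide for *Ccl1*, *Ccl9* and *Ccl22*.

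On log2(FPKM + 1), 271 genes were higher and 108 lower by over 2-fold, against 681 and 308. Over 3 libraries edgeR called 327 genes higher and 208 lower, DESeq2 208 and 117, limma 112 lower, and edgeR without the filter 0 and 0 (611 genes at an unadjusted p under 0.05, and -1.98 for *Xcl1* with an adjusted p of 0.137). Further fits, added after seeing the data, gave *Xcl1* -2.16 without Tc9 replicate 1 and -1.81 without Tc9 replicate 2, with no test. Over 4 libraries 224 were higher and 214 lower, the latter 139 without the filter, and leaving out 1 library gave 99 to 424 higher and 74 to 430 lower. *Runx3* ranged from -0.034 to 0.175 when a Tc9 library was left out. The cause was not tested.

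With a replicate block, possible over 4 libraries only, 231 genes were higher and 213 lower. Deviations of equally numbered libraries correlated at -0.065 over 1284 genes. This value cannot show whether equally numbered libraries were handled together, and pairing was not tested in another way. The block could not be fitted for any of the 9 chemokine genes. A single Tc1 library stands behind each of them, and 3 counts or fewer cannot be told from 0 at this depth.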

Other observations

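*Ccl5*, *Ccl9*, *Ccl6*, *Ccl3* and *Ccl4* are the protein-coding genes that RefSeq places within 138.9 kb of chromosome 11, and each had a lower count in Tc9 replicate 2 than in Tc1 replicate 2. *Ccl6*, which is not among the 9 chemokine genes, had 6 counts in the Tc1 library and 0 in the Tc9 library, where a count of 0 allows up to 3. *Ccl1*, higher in Tc9, lies 1.35 Mb away, next to *Ccl2*, *Ccl7*, *Ccl8*, *Ccl11* and *Ccl12*, which were at 0 in both libraries. This grouping by position was made after the values were seen, and *Ccl5* and *Ccl4* set the ends of the span. Apart from *Ccl6* it restates the lower counts given above.

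Of 22 transcription factors known from the regulation of chemokine genes, 8 were tested with edgeR's quasi-likelihood method over 3 libraries, of which 3 rose and 1 fell in Tc9 cells, where 12.5% of all genes rose and 7.93% fell. *Runx3* was tested over 4 libraries and did not pass (log2 fold change 0.07, adjusted p = 0.654 in edgeR), but passed without Tc9 replicate 1 (0.18, adjusted p = 0.00386 in edgeR). *Gata3*, which directs type 2 differentiation, rose from 829 counts in Tc1 replicate 2 to 5037 and 6839 in Tc9 (2.81 on the log2 scale, adjusted p = 1.38e-18). *Maf* had 38, 936 and 874 counts (4.54, adjusted p = 8.12e-36) and *Irf4* 18150, 44730 and 42747 (1.24, adjusted p = 3.91e-06), all 3 higher in both Tc9 libraries in that edgeR test. *Fosb*, a subunit of AP-1, had 107, 27 and 27 counts (-2.01, adjusted p = 2.84e-06 in edgeR). As for *Xcl1*, these calls were lost in edgeR without the filter on low counts (adjusted p = 0.123 to 0.142). The NF-κB and NFAT genes were reached by the replicate 2 libraries only, where *Nfkb1* had 27376 and 27565 counts, *Rela* 3774 and 5753, *Rel* 2180 and 1420, and *Nfatc1* 3655 and 4798, none of them past 2-fold.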
